A study of Saccharomyces cerevisiae with 2 samples.

Results

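Open chromatin was mapped in the budding yeast Saccharomyces cerevisiae by DNase I, an enzyme that cuts DNA where chromatin is accessible, as hypersensitive sites (DHS). The DHS described here are those of the wild-type (WT) list that were much shorter in a strain with the Hsp90 allele G170D. A WT DHS was taken when it shared at least 1 bp with G170D DHS and their union covered less than 50% of its length. Of 3155 WT DHS, 341 met this rule, which is 10.8% of the list and 15.1% of the 2263 WT DHS that overlapped any G170D DHS. They are called shrunken DHS below. Within them, length covered by a G170D DHS is called retained and the rest lost, so that "lost" means listed in WT and not listed in G170D. The regions were chosen by the measured extents of the DHS in both lists, so their shortening is the rule itself and no finding. Positions, neighbouring genes and the footprint density of the retained length did not enter the rule. The footprints come from the same libraries as the DHS, so their density is not independent of it.

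The G170D strain is a temperature-sensitive Hsp90 mutant, and G170D and WT cells were both derived from the laboratory strain BY4741. Both were grown in YPD, a rich medium, at 37 °C for 6 h, from a starting OD of 0.37 in G170D and 0.25 in WT to 0.65 to 0.7 in both. Growth over that time therefore differed along with the strain, and these cannot be told apart. Which Hsp90 gene carried the allele was not stated in the labels. Each strain had 1 library with no replicate, so every value below describes these libraries, and no test between strains was possible. The intervals are 95% exact intervals for counting error only. They treat each counted region, gene or footprint as independent. Read depth is unknown for both lists.

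Hsp90 is an abundant chaperone that helps signalling proteins and other clients reach their active fold, with the aid of cochaperones. In yeast, DNase I hypersensitivity is known mainly from nucleosome-depleted stretches, above all promoters, and also from the regions just after genes and from tRNA genes. Within a DHS, a bound protein can leave a short protected stretch, a footprint. A DHS edge is where the signal passes the caller's threshold, so an edge can move with the depth of a library as well as with the chromatin.

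The G170D list held 2875 DHS over 1807 kb and the WT list 3155 DHS over 2183 kb. Apart from the 341 shrunken DHS, 1922 WT DHS (60.9%) were covered over at least 50% of their length and are called maintained DHS, and 892 (28.3%) overlapped no G170D DHS. Applied the other way round, the rule found 141 G170D DHS that WT DHS covered over less than 50%, which is 4.90% of the G170D list and 5.96% of the 2367 that overlapped a WT DHS. Shortening in G170D was thus the more frequent direction, at 15.1% (13.6 to 16.6) of overlapping WT DHS against 5.96% (5.04 to 6.99) of overlapping G170D DHS. When the WT list was reduced by score to the covered length of the G170D list, leaving 1673 WT DHS, 191 WT DHS and 54 G170D DHS met the rule. That setting put the higher-scoring WT DHS against the whole G170D list, weak DHS included, so it was no even match. With the 2875 highest-scoring DHS of each list, 328 WT DHS and 113 G170D DHS met the rule. Shares of overlapping DHS were not computed for these settings.

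**Figure D1:**
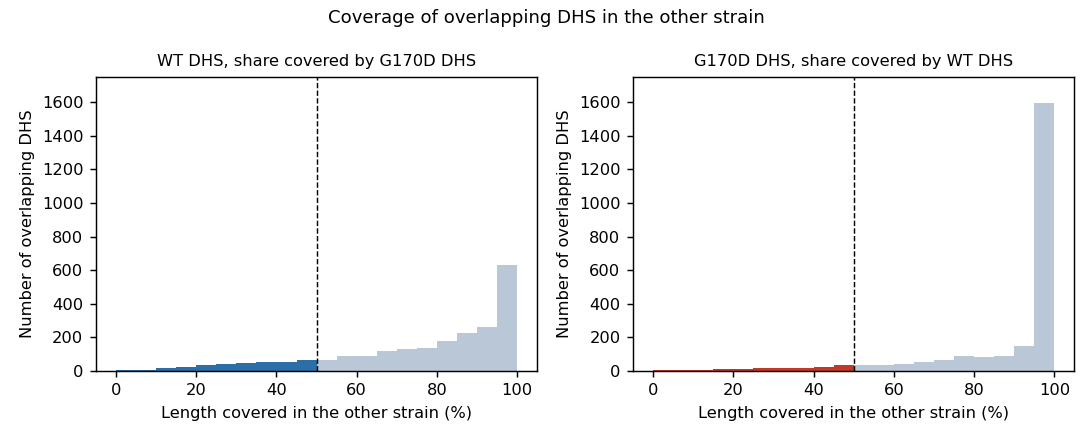
Histograms of the share of each overlapping DHS that DHS of the other strain covered, in bins of 5% along the x axis, with the number of DHS on the y axis, for WT DHS on the left and G170D DHS on the right. Coloured bars left of the dashed line at 50% hold the 341 shrunken WT DHS and the 141 G170D DHS that met the same rule, and most DHS of both lists lie to the right of it.

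The shrunken DHS were mid-sized regions. Their WT widths ran from 32 to 2984 bp with a median of 710 bp, close to the 731.5 bp of maintained DHS and well above the 194 bp of WT DHS that overlapped nothing in G170D. The retained length per region had a median of 210 bp (5 to 1462 bp) and the lost length a median of 458 bp (27 to 2657 bp). Together G170D DHS covered 83.2 kb of their 249.9 kb, or 33.3%, and 166.8 kb was lost. That was 38.3% of all length lost from overlapping WT DHS, a share that the rule itself raises.

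Their frequency depended on WT width and score. Among overlapping WT DHS over 600 to 800 bp wide, 63 of 242 were shrunken (26.0%, 20.6 to 32.0), against 36 of 251 (14.3%, 10.3 to 19.3) up to 200 bp and 23 of 347 (6.63%, 4.25 to 9.78) over 1500 bp. Under the reverse rule the same width classes of G170D DHS gave 7.84%, 2.78% and 0.791%. The reverse share was highest over 400 to 600 bp, at 13.6% (9.97 to 17.9) of G170D DHS against 20.1% (14.6 to 26.6) of WT DHS under the rule used here, and these intervals overlap. The authors' score, a positive value per DHS of unstated formula, had a median of 9.23 in shrunken and 14.7 in maintained DHS of the WT list. In the top quartile of the WT list by score 32 of 788 overlapping DHS were shrunken (4.06%, 2.79 to 5.68), in the second 139 of 725 (19.2%), in the third 122 of 478 (25.5%) and in the lowest 48 of 272 (17.6%). The 378 G170D DHS left in shrunken regions were weak within their own list: the highest per region had a median score of 4.93, against 12.4 for those in maintained DHS, and the lowest score of any of them was 3.49. The depth of the libraries, which could move such weak regions across a threshold, is unknown, and its part was not tested.

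At the limit of 50% itself the regions ran on without a gap. The last to be counted were a DHS before the coding start of GUP1, which acts in the remodelling of lipid anchors (312 of 625 bp retained, 49.9%, as the edge of a G170D DHS of 1710 bp), one over the NAD synthesis gene BNA4 (100 of 201 bp, 49.8%) and one over FUN14 and ERP2 (784 of 1578 bp, 49.7%). Just outside lay DHS over SRP1 and KAR1 (444 of 888 bp), over the proteasome gene PRE3 (832 of 1664 bp) and over INM1 (104 of 208 bp), each with 50% retained.

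In most shrunken DHS 1 end held the main part of the loss. In 275 of 341 (80.6%, 76.0 to 84.7) a single end segment held at least 60% of the lost length, in 55 (16.1%) the loss was spread with no such end, and in 11 (3.23%) it lay inside, between pieces that remained. Where 1 piece is left, only a near-even split of the loss between both ends falls below 60%, so the limit itself makes a main end frequent. The other end could be lost as well, as at FUN14 and ERP2 (491 and 303 bp). The main lost end was the left in 142 and the right in 133 cases, counted along the chromosome. Its length had a median of 371 bp, with quartiles of 160.5 and 519.5 bp. At the opposite edge the G170D DHS ended within 100 bp of the WT DHS in 167 of the 275 regions (60.7%), typically a little short of it, by a median of 48 bp. In 304 of 341 regions (89.1%) 1 G170D DHS was left, in 36 there were 2, and in 1 there were 4. Several pieces were left in 10.9% (7.76 to 14.6) of shrunken DHS and in 159 of 1922 maintained DHS (8.27%, 7.08 to 9.59), and these intervals overlap. In 70 regions (20.5%) a G170D DHS also reached beyond the WT edge, by a median of 162.5 bp, and in 18 regions (5.28%) it also overlapped a second WT DHS, so that the remaining DHS was not always a shortened form of the WT DHS.

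**Figure D2:**
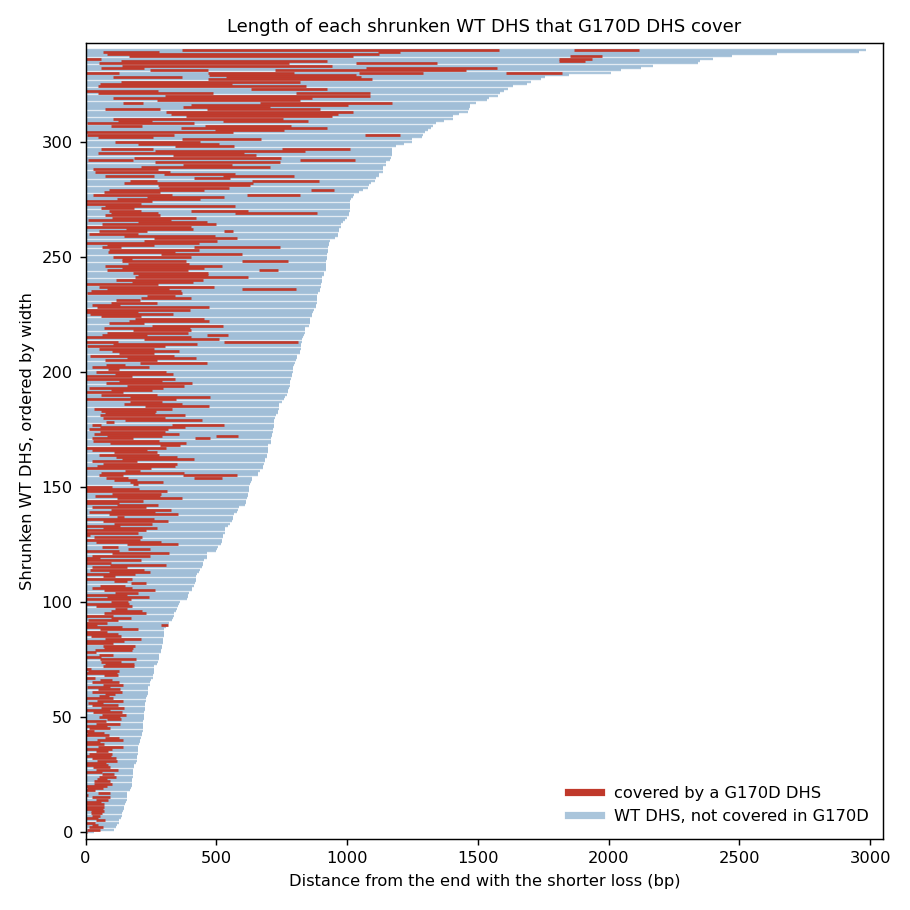
Each of the 341 shrunken WT DHS is a horizontal bar as long as its WT width in bp, ordered by width on the y axis and turned so that the end with the shorter loss is at 0 on the x axis. Red marks what G170D DHS covered and pale blue what was lost, and this turning places red toward the left by construction. The lengths of red and pale blue in each bar are the values to read.

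The lost end was assigned to the nearest boundary of a protein-coding gene within 500 bp of its outer edge. Only the outer edge counts, so a loss toward a coding end can also take in a coding start. It lay nearest a coding start in 93 regions (27.3% of 341, 22.6 to 32.3), nearest a coding end in 121 (35.5%, 30.4 to 40.8), and in 127 (37.2%) it was neither, either because no boundary was that near (61) or because no single end carried the loss. Among the 275 regions with a main lost end, the lost edge was nearest a coding start in 33.8% (28.2 to 39.7) and a coding end in 44.0% (38.04 to 50.1). The opposite edge of the same regions was nearest a coding start in 30.2% and a coding end in 47.3%, and the edges of maintained DHS gave 33.7% and 44.3%. Lost edges therefore showed no preference for starts or ends that the other edges did not show. Along the chromosomes as a whole, 33.5% of positions were nearest a coding start and 30.5% a coding end. In 83 regions both edges were nearest a coding end, in 46 both were nearest a coding start, in 34 the lost edge was at a start and the other at an end, and in 24 it was the reverse.

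What lay under the lost and the retained length did differ. Coding sequence made up 65.5% of the lost length and 49.4% of the retained length of shrunken DHS. Here and below, coding sequence and coding region mean the whole span from coding start to coding end, introns included. The retained length was richer in all kinds of spacer: 16.3% of it lay between diverging genes, 22.7% between tandem genes and 11.3% between converging genes, against 11.2%, 16.2% and 5.98% of the lost length. Taken region by region, 141 of 341 had the larger coding share in the lost part (41.3%, 36.1 to 46.8), 70 in the retained part (20.5%, 16.4 to 25.2) and 130 had equal shares, 86 of them wholly coding and 44 with no coding sequence. This was not particular to shrunken DHS. Maintained DHS, of whose length 268.7 kb was lost, had 67.2% coding sequence in the lost and 46.5% in the retained length, and 846 of 1573 had the larger coding share in the lost part against 235 in the retained part. In the 141 G170D DHS that were short in WT the shares were closer, at 63.4% in the part absent from WT and 60.1% in the part found in both. Coding sequence made up 72.9% of the chromosomes and 51.9% of all WT DHS length.

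The profile around genes showed where the retained length sat. The length of shrunken DHS was greatest just after coding ends. The bin from 200 to 299 bp after the end held 9.65 kb in G170D and 21.4 kb in WT, summed over all 6002 genes. No such profile was made for maintained DHS, whose edges were also nearest coding ends (44.3%) more often than starts (33.7%). Whether this peak is particular to shrunken DHS was therefore not tested. From the coding end to 299 bp after it, 54.2% to 55.0% of the WT length was lost. Within the gene, 200 to 500 bp before the coding end, 78.4% to 80.4% was lost. Around coding starts the loss was 58.8% in the 100 bp before the start and 76.0% to 80.6% from 100 to 499 bp into the gene. Farther from the start this contrast did not hold. The loss was 56.1% to 58.0% from 600 to 799 bp into the gene, and 68.1% to 75.2% from 1000 to 701 bp before it. The bin from 200 to 299 bp into the gene held 1.72 kb in G170D and 8.89 kb in WT.

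**Figure D3:**
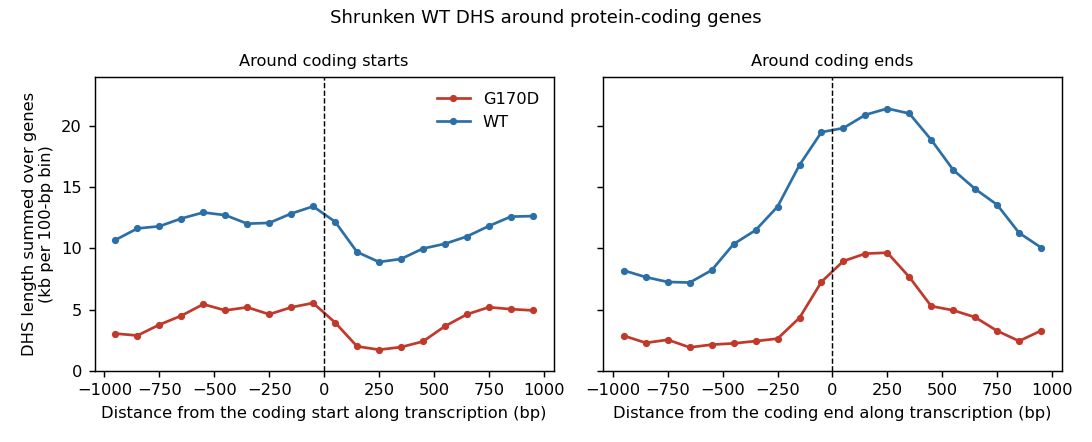
Length of shrunken WT DHS around the coding starts (left) and coding ends (right) of 6002 protein-coding genes, in kb per 100-bp bin on the y axis, against the distance in bp along the direction of transcription. G170D (red) counts what G170D DHS covered and WT (blue) the whole, a stretch near several genes counts for each, and both lines peak 200 to 299 bp after the coding end and dip at the same distance after the coding start.

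The region with the greatest loss lay near the right end of chromosome VII, at 1065884 to 1068839 (sacCer3 here and below). It covered most of IMA1, an isomaltase gene of a family with near-identical copies among which reads can be misplaced. Of its 2956 bp, G170D retained 299 bp in pieces of 214 and 85 bp, with 2 footprints against 4 WT footprints in the same length, while 35 WT footprints lay in the lost length. Its lost end lay 152 bp from the coding start of IMA1. The second was a DHS of 2400 bp on chromosome XII (151924 to 154323) over YLR001C, of which pieces of 127 and 83 bp were left, reaching 185 bp of the WT region (7.71%), with 39 WT footprints in the lost length.

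The third spanned RPL21A, a ribosomal protein gene, RIM2, a mitochondrial pyrimidine nucleotide carrier, and MED8, a Mediator subunit, on chromosome II (606631 to 609274). A single G170D DHS of 1040 bp (606713 to 607752) remained, from within RPL21A to the start of RIM2, and 1522 bp were lost toward the coding end of MED8. Footprints in the retained length numbered 16 in G170D and 28 in WT. A DHS between the start of GZF3, a GATA-type repressor gene, and UTP10, a ribosome assembly gene, and on into UTP10 on chromosome X (211574 to 214557) was the widest of all, at 2984 bp. It kept pieces of 250 and 1212 bp (49.0%), both within UTP10.

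Further regions with large losses held pieces on both sides of a gap. At TEL1, a checkpoint kinase gene (chromosome II, 56607 to 59076), pieces of 121 and 855 bp were left of 2470 bp, with 830 bp lost between them. At HIS5, a histidine synthesis gene, and NUP159, a nuclear pore gene (chromosome IX, 142183 to 144530), 785 and 97 bp were left, and the 889 bp between them lay over HIS5, whose upstream 500 bp stayed covered in both strains. At RPL13A and RPP1A (chromosome IV, 308197 to 310321), both for proteins of the large ribosomal subunit, 163 and 501 bp were left, and 849 bp lost inside lay almost wholly over RPL13A. At UTP8, which encodes a ribosome assembly factor (chromosome VII, 747252 to 749261), 4 pieces of 151, 330, 244 and 211 bp remained, the most of any region, with 14 footprints in G170D against 17 in WT.

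**Figure D4:**
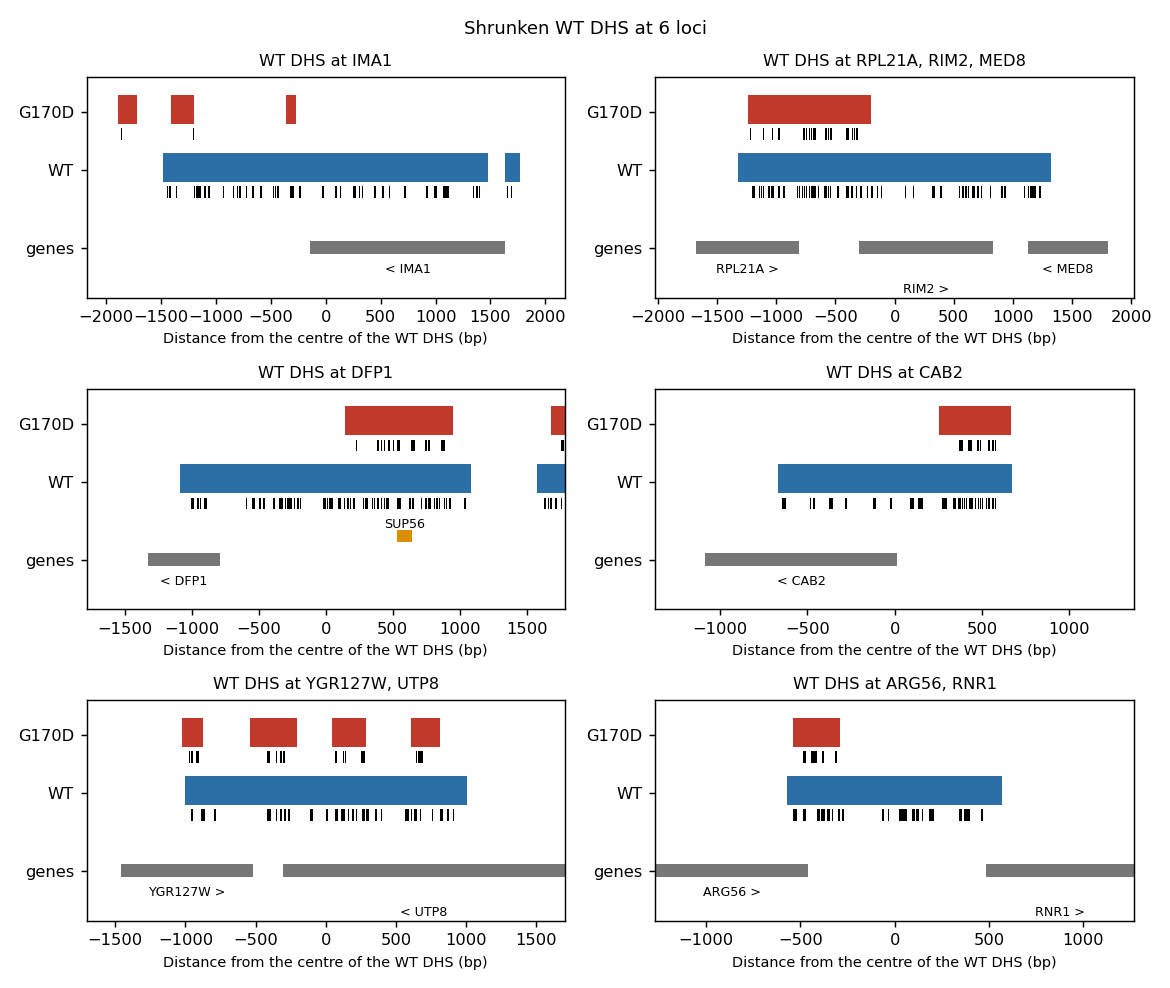
Maps of 6 shrunken WT DHS with the G170D list (red, upper row), the WT list (blue) and footprints of each strain (black ticks under its row), above genes (grey, arrowheads show the direction; tRNA gene orange), with the distance in bp from the centre of the WT DHS on the x axis. At IMA1 short pieces remain of 2956 bp, at UTP8 4 pieces remain, and at ARG56 and RNR1 the G170D DHS lies at the end of ARG56 while the stretch upstream of RNR1 is lost.

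The losses toward coding starts were led by IMA1, by RPS14A and by AAD10, an aryl alcohol dehydrogenase gene with close relatives (chromosome X, 727184 to 728468), where 210 of 1285 bp were retained. At RPS14A (chromosome III, 176294 to 178635), a small subunit ribosomal protein gene next to SYP1 and the snoRNA genes SNR65 and SNR189, pieces of 724 and 309 bp were left of 2342 bp. The 500 bp upstream of RPS14A held no DHS of this region in G170D and 415 bp in WT. The losses toward coding ends were led by MED8, by DFP1 and by PSY2, a phosphatase subunit gene (chromosome XIV, 260957 to 262644), where 503 of 1688 bp were retained and G170D had 11 footprints against 8 in WT. At DFP1 (chromosome I, 179523 to 181693) the 1228 bp on its side were lost, with the coding start of DFP1 among them. The 500 bp upstream of DFP1 held 0 bp in G170D and 500 bp in WT. In this region 804 of 2171 bp remained around the leucine tRNA gene SUP56, with 12 footprints in G170D and 25 in WT.

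In some regions only a trace remained. Among regions at least 500 bp wide the least covered were those at the coding end of TRX1, a thioredoxin gene (19 of 630 bp, 3.02%), and over that of AIM22, a lipoate transfer gene (19 of 526 bp, 3.61%). They were followed by those from MOT2 to ARG56 (39 of 923 bp, 4.23%), upstream of SAG1, which encodes alpha-agglutinin (31 of 721 bp, 4.30%), and at the tyrosine tRNA gene SUP3 next to TOS7 (28 of 565 bp, 4.96%). These 5 held 0 G170D footprints. In the lost length WT had 16 footprints at MOT2 and between 9 and 13 at the others. For AIM22 the trace was the edge of a G170D DHS of 636 bp that lay mostly outside the WT region. The other 4 traces were whole G170D DHS of 19 to 39 bp, with scores close to 3.49, the lowest among G170D DHS in shrunken regions.

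The shrunken DHS with the highest WT scores are described next. At CAB2, a coenzyme A synthesis gene (chromosome IX, 203970 to 205310), the WT score of 84.0 ranked at place 195, and a G170D DHS of 409 bp with a score of 48.4 kept the right edge to within 6 bp, while 926 bp were lost over the start of CAB2 and into the gene. Footprints in the retained length numbered 7 in G170D and 15 in WT. The next were at TGL2 and UBC5 with 2 tRNA genes (782 of 1757 bp retained), at DFP1 and SUP56, at a tRNA gene near GAP1, the general amino acid permease (401 of 873 bp), and at RPS14A. The highest score of the G170D DHS left there was 13.1 at TGL2 and UBC5, 16.5 at DFP1, 30.4 near GAP1 and 18.7 at RPS14A, against a median of 12.4 for those in maintained DHS. Of these 5, 3 held a tRNA gene.

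Over all shrunken DHS 17 held a tRNA gene (4.99%, 2.93 to 7.86), against 182 of 1922 maintained DHS (9.47%, 8.20 to 10.9) and 1 of 892 WT DHS without overlap (0.112%). Of the tRNA genes whose midpoint lay in a shrunken DHS, 13 lay in the lost and 2 in the retained length, where the rule itself made lost length the larger part. In maintained DHS 9 lay in the lost and 183 in the retained length. Genes for snoRNAs were found in 4 shrunken DHS (1.17%) and 20 maintained DHS (1.04%).

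By gene, lost length lay in the coding region or the 500 bp upstream of 432 of 6002 protein-coding genes (7.20%), upstream of 190 and inside the coding region of 366. Of the 2675 genes with any overlapping WT DHS in these windows, 16.1% were reached. The following lists are counted against these shares and were not tested for enrichment. Lengths per gene count shrunken DHS only, retained in G170D and listed in WT. Cytosolic ribosomal protein genes were reached in 20 of 138 cases (14.5%, 9.08 to 21.5), or 23.3% of the 86 with an overlapping DHS, 14 of them upstream. RPL23A had 6 bp of retained DHS in G170D and 640 bp of DHS in WT between its coding start and coding end, any intron included. RPL20B had 134 and 500 bp upstream, and RPL9B had 89 and 500 bp upstream, in G170D and WT. Most ribosomal protein genes have a close copy, and reads of such pairs can be misplaced.

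Genes of the cell wall integrity pathway, which senses wall stress, were reached in 7 of 21 cases (33.3%, 14.6 to 57.0), or 58.3% of the 12 with an overlapping DHS. Those reached included the genes of the membrane sensors MID2, WSC2 and WSC3. Upstream of MID2 224 bp were listed in G170D and 500 bp in WT, and upstream of WSC3 193 bp in G170D and 500 bp in WT. At WSC2 none of 126 bp over the coding region was retained. RHO1, the GTPase that the sensors act on, had 0 bp upstream in G170D and 315 bp in WT. Its region on chromosome XVI (875053 to 875856) kept a piece of 202 bp inside RHO1. The pathway's kinase gene SLT2 had 174 bp in G170D and 500 bp in WT upstream. The wall synthases FKS1 and CHS3 were touched inside the coding region, with 0 and 212 bp at FKS1 and 54 and 207 bp at CHS3 in G170D and WT.

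Histone genes were reached in 3 of 11 cases (27.3%, 6.02 to 61.0), or 50% of the 6 with an overlapping DHS. HHT2, for histone H3, lay in a region on chromosome XIV (575189 to 576203) that kept 316 of 1015 bp, all of it outside HHT2, with 3 footprints in G170D and 9 in WT. The divergent pair HTB1 and HTA1, for histones H2B and H2A, held a shrunken DHS at each gene: that at HTB1 kept 493 of 1139 bp and that at HTA1 kept 162 of 339 bp. Upstream of HTB1 0 bp of them were listed in G170D and 169 bp in WT, and upstream of HTA1 162 bp in G170D and 291 bp in WT.

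Amino acid synthesis genes were reached in 9 of 61 cases (14.8%, 6.98 to 26.2), or 45% of the 20 with an overlapping DHS. Lost length lay in the coding region of 9 of the 9, against 366 of all 432 genes reached. SER3, for serine synthesis, had 212 bp in G170D and 998 bp in WT over its coding region, and MET10, for sulfite reduction, had 0 and 625 bp. ARG56, for arginine synthesis, lay between 2 shrunken DHS. Its upstream 500 bp held 39 bp in G170D and 500 bp in WT. The region at its coding end (chromosome V, 297895 to 299032) kept 250 of 1138 bp at ARG56, with 4 footprints in G170D and 7 in WT. Most of the rest of that region lay upstream of RNR1, the large subunit of ribonucleotide reductase. The 500 bp upstream of RNR1 held 0 bp in G170D and 500 bp in WT, and 83 bp of the lost length lay inside RNR1. Genes of the G1/S transition and replication were reached in 4 of 37 cases (10.8%), or 22.2% of the 18 with an overlapping DHS. They were RNR1, the polymerase genes POL1 and POL2, and RFC5.

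Ribosome assembly genes of the UTP, NOP and RRP families were reached in 6 of 53 cases (11.3%), or 22.2% of the 27 with an overlapping DHS. The 6 were UTP genes, among them UTP10, UTP8 and UTP21, whose upstream 500 bp held 60 bp in G170D and 405 bp in WT. Secretory transport genes were reached in 5 of 58 cases (8.62%), or 21.7% of the 23 with an overlapping DHS, with the exocyst gene SEC3 at 188 and 966 bp over its coding region in G170D and WT, the TRAPP gene BET5 at 6 and 480 bp, and the coatomer gene SEC27 at 177 and 500 bp upstream. Of heat shock chaperone genes 2 of 24 were reached (8.33%), or 11.8% of the 17 with an overlapping DHS: SSA1, an Hsp70 gene, had 166 bp in G170D and 268 bp in WT upstream, and SSB1 had 35 and 107 bp over its coding region. The mating genes STE2, the pheromone receptor, and GPA1 made up 2 of 30 (6.67%), or 15.4% of the 13 with an overlapping DHS. Proteasome genes by name were reached in 2 of 33 cases (6.06%), or 16.7% of the 12 with an overlapping DHS: PUP2, a core subunit, and RPN4, which encodes the transcription factor of these genes.

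Chromatin remodeller genes were reached in 3 of 56 cases (5.36%), or 14.3% of the 21 with an overlapping DHS: RSC1 had 117 bp in G170D and 500 bp in WT upstream, and ISW2 and SWR1 were touched inside the coding region. Glycolysis and fermentation genes were reached in 1 of 22 (4.55%), or 11.1% of the 9 with an overlapping DHS: PDC5, with 217 and 416 bp upstream in G170D and WT. Respiration and citric acid cycle genes came to 2 of 46 (4.35%), or 6.67% of the 30 with an overlapping DHS: CYT1 with 162 and 500 bp upstream and ATP16 with 0 and 333 bp over its coding region. The ergosterol gene HMG1 was 1 of 24 (4.17%), or 11.1% of the 9 with an overlapping DHS. None of 14 genes for Hsp90 and its cochaperones was reached (0 of 14, with an exact upper limit of 23.2%), and 7 of them had an overlapping DHS. The WT DHS that adjoined HSC82 and HSP82 were maintained, with 70.8% to 87.2% of their length retained. A shrunken DHS covered TRP1 (chromosome IV, 461871 to 462691), with 135 bp in G170D and 821 bp in WT. TRP1 is a common selectable marker, and whether either strain carries an altered TRP1 locus was not tested.

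Footprints did not enter the rule directly, but came from the same libraries as the DHS that did. In the retained length they were also fewer in G170D. There G170D had 1148 footprints (13.8 per kb) and WT 1689 (20.3 per kb) in the same 83.2 kb, a ratio of 0.680 (0.630 to 0.733). In the 1461 kb retained in maintained DHS the densities were 19.6 per kb in G170D and 23.4 per kb in WT, a ratio of 0.840 (0.827 to 0.853), and the intervals of the ratios do not overlap. These intervals treat single footprints as independent, although many share a DHS, so their separation is no test of a difference. By region, 43 shrunken DHS had more footprints in G170D, 226 had fewer and 72 had equal numbers. The lower ratio was found in each quartile of WT score: 0.616 (0.527 to 0.718) against 0.832 (0.817 to 0.848) in the top quartile, 0.697 against 0.835 in the second, 0.703 against 0.917 in the third, and 0.757 (0.520 to 1.10) against 1.01 (0.893 to 1.14) in the lowest, where the intervals overlap. With both footprint lists reduced to the same number by score, taking more negative scores as stronger, which the labels do not state, the ratios were 0.952 (0.877 to 1.03) in shrunken and 1.08 (1.06 to 1.10) in maintained DHS, so that the shortfall of G170D in shrunken DHS was no longer larger than its counting error while the difference between the ratios remained. Part of the retained length lies at G170D edges, and the G170D DHS there were weak (median highest score 4.93, against 12.4 in maintained DHS). Quartiles of WT score do not match the regions by G170D score. The lower ratio is thus not independent of the rule, and the share of edges and weak DHS in it was not tested.

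**Figure D5:**
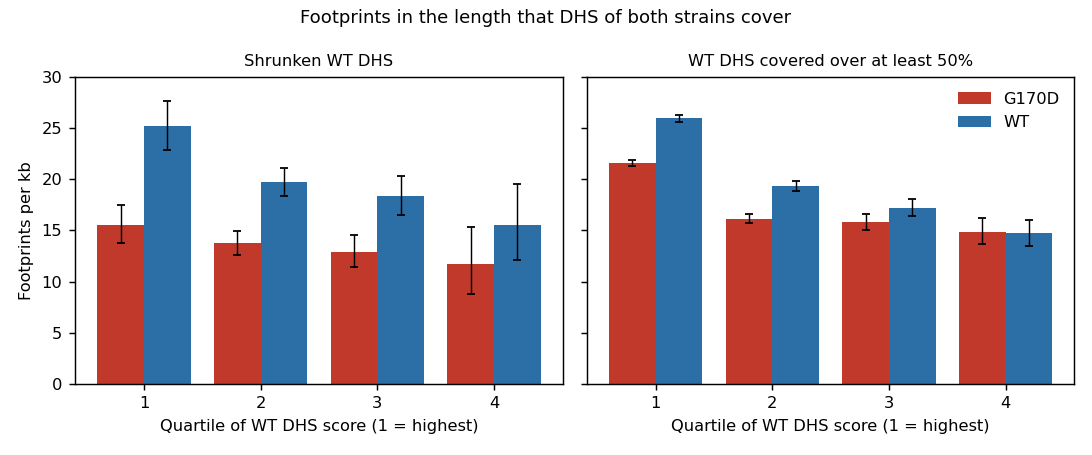
Footprints per kb (y axis) in the length that DHS of both strains cover, G170D (red) left of WT (blue), by quartile of the WT DHS score, for shrunken DHS on the left and maintained DHS on the right. Error bars are exact 95% intervals of the counts, and the G170D bars of shrunken DHS lie between 11.7 and 15.5 per kb, below the WT bars in each.

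Footprints that recurred were also less frequent. Of G170D footprints in the retained length of shrunken DHS, 776 of 1148 overlapped a WT footprint (67.6%, 64.8 to 70.3), against 72.9% (72.3 to 73.4) in maintained DHS. Of WT footprints there, 785 of 1689 overlapped a G170D footprint (46.5%, 44.1 to 48.9), against 61.9% (61.4 to 62.4). These shares follow in part from the number of footprints in the other list. Footprints were listed only within DHS of their own strain, so the lost length holds none in G170D by construction. In WT alone, the lost length of shrunken DHS held 2408 footprints at 14.4 per kb, against 20.3 per kb in the retained length, a ratio of 0.711 (0.668 to 0.757), and their median scores were -4.67 in the lost and -4.88 in the retained length. In maintained DHS the same ratio was 0.581 (0.561 to 0.601). The lost length of shrunken DHS was thus not empty in WT: 15 of 341 had no WT footprint there, and the median was 6. In G170D, 69 of 341 shrunken DHS held no footprint.

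By chromosome, the share of overlapping WT DHS that were shrunken ran from 10.8% on III (4.44 to 20.9) to 22.5% on IX (13.5 to 34.0), and the interval of each of the 16 chromosomes included the overall 15.1%.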

How the data were processed

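DNase I libraries of 1 G170D and 1 WT culture were used, grouped by the labelled genotype. Per the submitters' processing notes, FastQC, Bowtie 0.12.8 and the sacCer3 build were used. Caller and cutoff of the DHS: not given in the sources used here. In the deposited lists the authors give each DHS and each footprint a score, used here only to rank and filter within a list. Depth is unknown, and lists called separately vary in length with depth and threshold.

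Coordinates are counted from 1. Overlap and coverage were computed per base with numpy 2.4.6, scipy 1.17.1 and pandas 2.3.3 under Python 3.11.15. Footprints were counted by midpoint. Genes came from an R64 table, the assembly of sacCer3, of which 96.4% of coding lengths were multiples of 3, so boundaries are coding boundaries. Coding regions were counted from coding start to coding end without removing introns. Strand was read from systematic names. Gene lists were the 15 named in the report. Shares have Clopper-Pearson intervals and ratios exact binomial intervals. Motif shares were not computed, because no genome sequence was used here. The assignment of region classes was run on a simulated list in which 100 WT DHS were cut back from 1 end, and all were recovered with the right side. Each was cut to well below the 50% limit, so this outcome was fixed by construction and checked only the computation. Loss at both ends, inner gaps and several pieces were not simulated. The regions and gene lists were chosen with earlier results of these data known. Named regions followed a fixed rule: most lost length, least coverage, highest score, most pieces, each direction, the 50% limit, and up to 3 genes per list. GUP1, TRP1, FKS1 and further genes of the shorter lists were added once values were known. The alternatives tried were other coverage limits, overlap rules, list lengths, score thresholds and footprint counts.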

Additional observations from a re-analysis of the deposited data

How the results depend on the processing

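Of 80 recomputed values 56 stayed within their interval or, for counts, lengths and the coding share, within 1.5 times. A reversal was defined only for the footprint ratios of shrunken DHS, and none of these reversed. The G170D to WT footprint ratio of maintained DHS was not among the recomputed values. It was 0.840 with the full footprint lists and 1.08 with lists of the same number, so it changed direction. With coverage under 30% there were 122 shrunken WT DHS and 48 shrunken G170D DHS, 69.9 kb lost, 4.92% with several pieces and 1.64% with a tRNA gene. With coverage under 70% there were 704 and 307, and 283.7 kb lost. With the WT list reduced by score to the length of the G170D list there were 191 and 54, 16.8% with several pieces and 8.38% with a tRNA gene. Without the lowest quartile of scores there were 191 and 81, 6.81% with several pieces and a footprint ratio of 0.735. With each list limited to DHS of its median width or more, 15% of shrunken WT DHS had several pieces and 89 G170D DHS were shrunken. The share toward coding starts was 15.0% with boundaries within 250 bp and 33.1% within 1000 bp. The footprint ratio was 0.952 with footprint lists of the same number and 0.735 in base pairs. The ratio of WT footprints in lost to retained length was 0.631 with DHS under 300 bp apart joined and 0.538 with WT footprints more negative in score than the median, taken as the stronger. Stricter limits leave fewer regions by construction, and the cause of the other shifts was not tested. No paired analysis was possible because each strain had 1 library. Without read counts, depth limits the DHS edges to an unknown extent.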
